A study of Homo sapiens with 15 samples.

Results

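The genes described here are the protein-coding genes of the short arm of chromosome 9 that were expressed in the ovarian cancer line OVCAR4 and in lines derived from it. They were chosen by position and level: a GENCODE v29 gene start below base 43000000 of chromosome 9, and a mean of at least 1 log2 RPKM over the 15 samples. RPKM is a read count scaled to gene length and library size. Of 215 protein-coding genes in that interval, 133 were measured, 30 lay below the level limit, 6 above it were left out by name (PLIN2 among them), and 97 members remained of 16604 genes measured. The limit on the mean used the expression values, so the members' level is a description. In 85 members every line's mean was at least 1. The other 12 (CBWD1, DOCK8, SLC1A1, JAK2, GLDC, PTPRD, TTC39B, IFT74, MOB3B, C9orf72, KIF24 and MYORG) were below 1 in at least 1 line, so their place among the members rested on the lines in which they were higher.

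OVCAR4 is a human cell line of high-grade serous ovarian carcinoma, and the untreated, platinum-sensitive parental line (Ovcar4Parental) was the control. Ov4Cis was selected by culture in rising doses of cisplatin and Ov4Carbo in rising doses of carboplatin, until the dose that inhibits growth had increased 2- to 10-fold. Ov4Carbo4 and Ov4Carbo7 each grew from a single cell of Ov4Carbo, so each is 1 clone and cannot stand for clones in general. Every line was grown in DMEM with serum and sequenced as 3 biological replicates after polyA capture. All 4 resistant lines were compared with the same 3 parental samples.

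High-grade serous carcinoma is known for widespread gain and loss of chromosome segments, and the transcripts of many genes on a segment usually follow its dosage in part. A segment is therefore often described by the median over its genes, beside the change of each gene. The short arm of chromosome 9 carries genes of many kinds, among them the kinase JAK2, the viral RNA sensor DDX58 (RIG-I), the transcription factor NFIB and the ribosomal protein RPS6. Chromosome copies were not measured here.

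A run of neighbouring members in the middle of the arm was higher in Ov4Carbo7 (values further on), and the stretch of 250 bases before the gene start is shown for those with a RefSeq entry. RRAGA, the first of them, is named only. The sequences are from RefSeq on GRCh38.p14, 5′ to 3′ on the gene's strand, and 83 of the 97 members had an entry under the same symbol. Capitals in HAUS6 and in its neighbour RPS6, which was not higher, mark CCGGAAG, the core of ETS family sites. Capitals in DENND4C mark GGGCGG, the GC box bound by SP1, on either strand.
HAUS6, chr9:19102905-19103154, minus strand: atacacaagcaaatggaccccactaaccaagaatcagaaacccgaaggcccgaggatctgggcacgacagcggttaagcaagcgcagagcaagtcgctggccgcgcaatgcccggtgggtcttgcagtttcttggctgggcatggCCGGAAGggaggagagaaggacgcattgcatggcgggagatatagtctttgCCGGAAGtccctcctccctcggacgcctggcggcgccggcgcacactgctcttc
DENND4C, chr9:19230263-19230512, plus strand, first of 2 entries: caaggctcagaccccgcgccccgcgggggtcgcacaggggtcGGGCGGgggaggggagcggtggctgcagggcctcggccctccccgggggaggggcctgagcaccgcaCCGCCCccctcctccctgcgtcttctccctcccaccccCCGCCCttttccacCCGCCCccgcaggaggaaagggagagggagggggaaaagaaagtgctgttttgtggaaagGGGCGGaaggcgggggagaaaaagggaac
RPS6, chr9:19380237-19380486, minus strand: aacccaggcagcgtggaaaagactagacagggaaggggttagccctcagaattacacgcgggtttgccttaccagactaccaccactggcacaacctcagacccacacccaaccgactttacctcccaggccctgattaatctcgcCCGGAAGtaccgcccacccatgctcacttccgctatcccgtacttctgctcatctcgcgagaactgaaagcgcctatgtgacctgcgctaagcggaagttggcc
DDX58 is shown because the 2 clones were called in opposite directions for it. Capitals mark GAAANGAAA, a variant of the interferon response repeat with 1 base between its parts. This variant was searched for after the sequence had been read. The repeat with 2 bases between its parts was also searched for and had 0 matches in the DDX58 window.
DDX58 (RIGI in RefSeq), chr9:32526197-32526446, minus strand: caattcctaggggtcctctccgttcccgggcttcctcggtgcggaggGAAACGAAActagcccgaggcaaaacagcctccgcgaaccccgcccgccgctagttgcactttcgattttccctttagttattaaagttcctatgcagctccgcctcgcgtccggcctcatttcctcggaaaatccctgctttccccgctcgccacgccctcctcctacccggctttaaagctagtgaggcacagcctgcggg
CCGGAAG was found 2 times before HAUS6, 1 time before RPS6 and 0 times before DENND4C, and 8.52% of 35116 promoters of this length held it on either strand. GGGCGG was found 5 times before DENND4C, 1 time each before RPS6 and DDX58 and 0 times before HAUS6, against 42.6% of promoters. GAAANGAAA was found 1 time each before DDX58 and DENND4C and was in 2.69% of promoters, and in the DDX58 window it did not overlap the GGGCGG match. The matches describe letters in these windows only.

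The lines were first checked for their origin. PAX8, the Müllerian lineage factor, had line means of 5.85 to 6.74 log2 RPKM. WT1, often present in serous carcinoma, was low in every line, at -5.07 to -1.52. KRT7 fell from 8.28 in the parental line to -0.57 in Ov4Cis, EPCAM from 5.98 to 1.17 and MUC16 from 4.60 to -1.73. KRT8 and KRT18 fell less, from 7.09 to 4.50 and from 7.53 to 6.32, so epithelial markers moved with the line by unlike amounts. MUC16 was also low in Ov4Carbo7, at -0.21. Whether this has a part in the members' values was not tested. The blood markers PTPRC and CD3E, the endothelial marker PECAM1 and the receptor gene ESR1 were not analysed here.

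The median of the short arm members stayed near 0 in every resistant line. In Ov4Carbo4 the median member differed from the parental line by 0.00 on the log2 scale (quartiles -0.24 and 0.23), with 48 members below 0 and 49 above. In Ov4Carbo7 the median was 0.01, in Ov4Carbo -0.06 and in Ov4Cis 0.00. The 4 comparisons share the parental samples. The 9692 genes chosen by the same filters on the other chromosomes had a median of 0.03 in Ov4Carbo4. By replicate, the members' median against the parental mean was -0.03, 0.02 and 0.02 in Ov4Carbo4, 0.02, 0.00 and 0.02 in Ov4Carbo7, -0.00, -0.07 and -0.07 in Ov4Carbo, and -0.04, 0.01 and 0.02 in Ov4Cis. The parental replicates themselves lay at -0.00, 0.01 and 0.01. The Ov4Carbo4 replicates thus lay on both sides of 0 and overlapped the parental ones.

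The rest of chromosome 9 was higher than the members in Ov4Carbo4. Its 315 genes had a median difference of 0.69 from the parental line, and 87.3% of them lay above 0. The replicate medians were 0.68, 0.61 and 0.70, against -0.01, 0.00 and 0.03 in the parental samples. In the other lines the same median was 0.08 in Ov4Carbo7, 0.12 in Ov4Carbo and 0.05 in Ov4Cis, and no replicate of them was above 0.15. The gap between the rest of the chromosome and the members was 0.60 to 0.71 in the Ov4Carbo4 replicates and -0.01 to 0.16 in the other 12 samples, so that the ranges did not overlap. Among these 12, the Ov4Carbo replicates had the largest gaps, at 0.15, 0.16 and 0.16. Against Ov4Carbo, its source, Ov4Carbo4 had a median of 0.05 over the members and 0.50 over the rest, and against Ov4Carbo7 of -0.01 and 0.54.

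**Figure D1:**
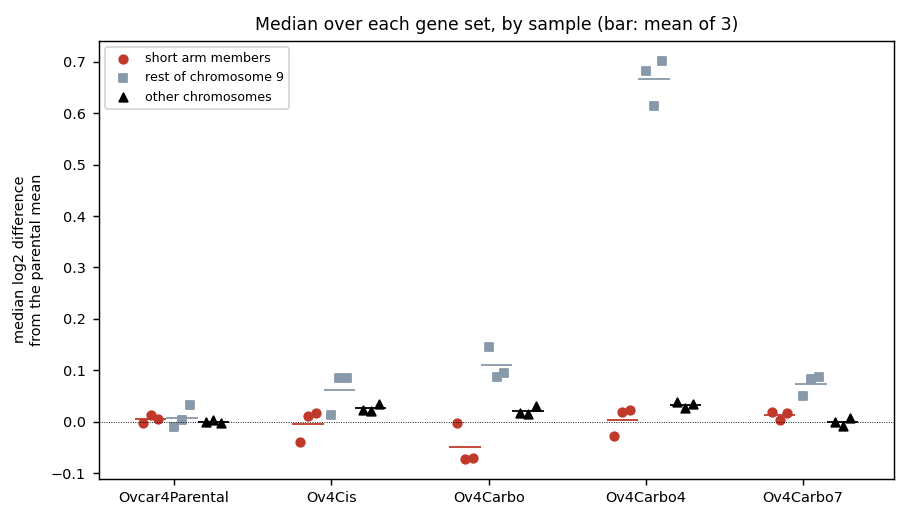
Median log2 difference from the parental mean (vertical axis) in each of the 15 samples, by line, for the 97 short arm members, the 315 genes of the rest of chromosome 9 and the 9692 genes of the other chromosomes; points are samples and bars the mean of 3. The rest of chromosome 9 sits between 0.61 and 0.70 in the Ov4Carbo4 samples, while the members stay between -0.07 and 0.02 in every sample.

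The step did not fall at the border between the arms. The first 45 genes after the short arm, FAM122A to ROR2, had a median of 0.16 in Ov4Carbo4 against the parental line, with 10 lower and 12 higher at an adjusted p under 0.05. From SPTLC1 to EHMT1, 270 genes had a median of 0.74, with 7 lower and 212 higher. This division was chosen after the values were seen and is a description. The last member, SHB, which encodes a signalling adaptor, had values of 2.01, 1.70 and 1.76 log2 RPKM in Ov4Carbo4 and 1.71, 1.94 and 1.81 in the parental line, a difference of 0.00. FAM122A, the first gene beyond the position limit, differed by 0.29. At the level limit, the lowest member, C9orf72, had a mean of 1.07, and the highest genes left out, MLLT3 and WASHC1, had means of 0.97 and 0.91.

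**Figure D2:**
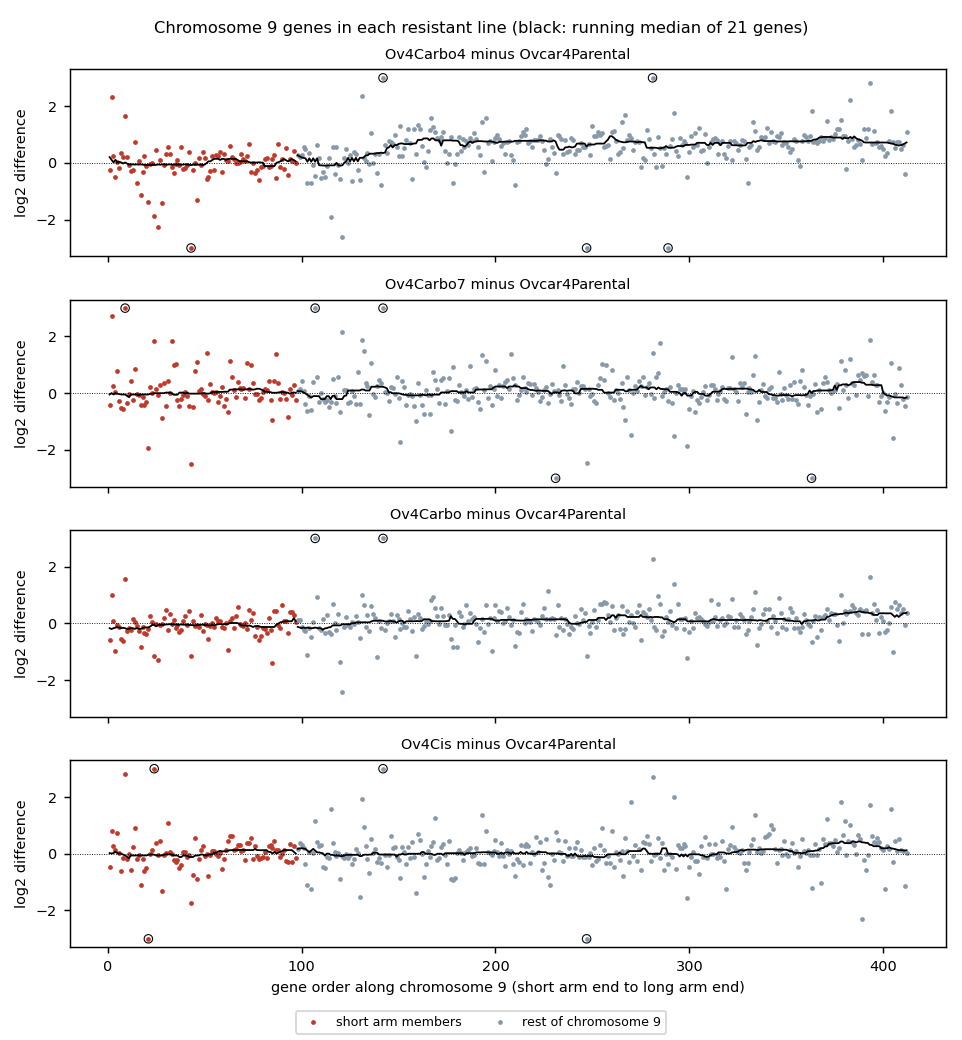
Log2 difference from the parental line (vertical axis) of each expressed protein-coding gene of chromosome 9 in gene order (horizontal axis), 1 panel per resistant line; red points are short arm members, grey points the rest of the chromosome, black lines a running median of 21 genes and circled points lie beyond 3. In Ov4Carbo4 the line stays near 0 along the short arm (median 0.00) and lies near 0.74 over most of the rest, while in the other lines the median over the rest is 0.05 to 0.12, and over the last 52 genes, WDR5 to EHMT1, 0.31 in Ov4Carbo, 0.26 in Ov4Cis and 0.10 in Ov4Carbo7.

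Along the short arm, the members were divided into 5 stretches by position. In Ov4Carbo4 the medians against the parental line were -0.06 from CBWD1 to PTPRD (24 members), 0.02 from MPDZ to RPS6 (12), -0.12 from FOCAD to C9orf72 (8), 0.06 from ACO1 to HINT2 (39) and 0.09 from RECK to SHB (14). No stretch came near the 0.74 of the long arm beyond SPTLC1. In Ov4Carbo7 the same medians were -0.05, 0.21, -0.32, 0.11 and -0.02, in Ov4Carbo -0.18, -0.03, 0.01, -0.07 and 0.08, and in Ov4Cis -0.04, -0.02, -0.25, 0.08 and 0.13. The 30 non-coding rows of the short arm with a mean of at least 1 had a median of 0.08 in Ov4Carbo4, with 3 lower and 3 higher. The 43 such rows of the rest of chromosome 9 had a median of 0.13, with 4 lower and 9 higher. Above 0 lay 56.7% of the short arm rows and 67.4% of the others. Between the clones the medians were -0.005 and 0.14 in the same order. The gap was thus much smaller over the non-coding rows than over the protein-coding genes. These rows include pseudogenes and were not divided at SPTLC1.

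Single members did change. A member was called at an adjusted p under 0.05 (limma, Benjamini-Hochberg over all 16604 genes), and a stricter rule also asked for an absolute log2 difference of at least 1. In Ov4Carbo4, 26 members (26.8%) were called against the parental line, 12 lower and 14 higher, against 39.7% of all genes and 40.9% of protein-coding genes of the same minimum level. The rest of chromosome 9 had 241 of 315 called (76.5%), 17 lower and 224 higher. The stricter rule kept 8 members, 6 lower and 2 higher, which is 8.25% of the members against 15.1% of all genes and 8.83% of protein-coding genes of that level. The 2 higher ones, DOCK8 and SLC1A1, are among the members below the level limit in the parental line. Of the 6 lower ones, MOB3B, TTC39B and GLDC were below that limit in at least 1 resistant line. For 53 members (54.6%) the 3 Ov4Carbo4 values did not overlap the 3 parental ones, against 58.1% of all genes and 61.1% of the protein-coding ones of that level. Without replicate 3 of Ov4Carbo4 the count of called members was 18, and without replicate 1 of Ov4Carbo it was 32.

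MOB3B (ENSG00000120162), of the MOB family of kinase activators, had the largest fall in Ov4Carbo4. It stood at 2.83, 2.94 and 3.27 log2 RPKM in the parental line and at -0.11, -0.40 and -0.24 in Ov4Carbo4. The difference was -3.26 (SE 0.30, limma adjusted p = 4.48e-06, lower in 3 of 3 samples). Its values were 0.40, 1.93 and 1.47 in Ov4Cis, 2.07, 1.60 and 1.88 in Ov4Carbo and 0.36, 0.64 and 0.57 in Ov4Carbo7. Every sample of the 4 resistant lines was below every parental one, and Ov4Carbo4 was below the rest. The high parental values helped MOB3B meet the level limit, which it did not reach in Ov4Carbo4 or Ov4Carbo7. These falls are therefore a description. MOB3B was the only member called lower in all 4 resistant lines, and the share of all genes called so was not counted. Its Ov4Carbo4 value was also lower than that of Ov4Carbo7, by -0.77 (SE 0.30, adjusted p = 0.0458). An exon of AL451123.1 lies across from one of its exons on the opposite strand, and the strand setting of the counting is not given in the sources used here.

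NFIB (ENSG00000147862), a nuclear factor I transcription factor, was lower in Ov4Carbo4 than in each of the other 4 lines. The parental line had 4.75, 4.80 and 4.65 log2 RPKM, Ov4Cis 4.79, 4.56 and 4.75, and Ov4Carbo7 4.72, 4.46 and 4.78. Ov4Carbo had 3.38, 3.86 and 3.11, and Ov4Carbo4 had 2.48, 2.46 and 2.52. The carboplatin population and 1 of its clones were thus below the other 3 lines, and the clone was below the population. The difference from the parental line was -2.24 in Ov4Carbo4 (SE 0.16, adjusted p = 5.67e-07) and -1.28 in Ov4Carbo (adjusted p = 8.59e-05). Between the clones it was -2.17 (SE 0.16, adjusted p = 5.75e-07).

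TTC39B and GLDC were lower in Ov4Carbo4, Ov4Carbo7 and Ov4Cis, and ERMP1 in Ov4Carbo4, Ov4Carbo and Ov4Cis. GLDC (ENSG00000178445), the decarboxylase of the mitochondrial glycine cleavage system, had 2.94, 3.11 and 3.12 log2 RPKM in the parental line and 2.66, 3.04 and 2.89 in Ov4Carbo. It had 1.65, 1.86 and 1.52 in Ov4Carbo4, 1.14, 1.11 and 1.08 in Ov4Carbo7 and -1.51, -1.52 and -2.13 in Ov4Cis. Both clones were below their source population, and Ov4Cis was below all other samples, by -4.77 from the parental line (SE 0.16, limma adjusted p = 7.11e-10). In Ov4Carbo4 the difference was -1.38 (adjusted p = 3.58e-05) and in Ov4Carbo7 -1.95 (adjusted p = 2.12e-06). In Ov4Carbo it was -0.19 and did not pass (adjusted p = 0.395). GLDC was below the level limit in Ov4Cis, and its higher values in the parental line and Ov4Carbo helped it meet that limit. These falls are therefore a description.

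TTC39B (ENSG00000155158), which takes part in lipid metabolism through the turnover of LXR receptors, had uneven parental values of 2.51, 1.35 and 1.68 log2 RPKM. Ov4Carbo4 had 0.38, 0.85 and 0.07 and Ov4Cis 0.58, 0.50 and 0.52, all below the parental samples. The differences were -1.41 (SE 0.31, adjusted p = 0.00341) and -1.31 (adjusted p = 0.00559). Ov4Carbo7, at 1.25, 1.03 and 0.65, was also below them, by -0.87 (adjusted p = 0.0416), while Ov4Carbo, at 1.23, 2.07 and 2.17, overlapped the parental line. TTC39B reached the level limit only in the parental line and Ov4Carbo, so its falls are a description. ERMP1 (ENSG00000099219), a metallopeptidase of the endoplasmic reticulum, had 5.66, 5.26 and 5.31 in the parental line and 4.21, 4.53 and 4.05 in Ov4Carbo4, a difference of -1.14 (SE 0.18, adjusted p = 0.000258). It was -1.09 lower in Ov4Cis (adjusted p = 0.000359) and -0.83 lower in Ov4Carbo (adjusted p = 0.00334). In Ov4Carbo7 its values of 4.92, 5.10 and 4.97 lay below the parental ones but did not pass (adjusted p = 0.0722).

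DDX58 (ENSG00000107201), the cytoplasmic sensor of viral RNA known as RIG-I, went in opposite directions in the clones. The parental line had 2.87, 2.87 and 2.68 log2 RPKM, Ov4Carbo4 1.49, 1.57 and 1.47, and Ov4Carbo7 3.85, 4.11 and 3.77. Neither clone overlapped the parental samples or the other clone. The differences from the parental line were -1.30 in Ov4Carbo4 (SE 0.41, limma adjusted p = 0.0231) and 1.10 in Ov4Carbo7 (SE 0.41, adjusted p = 0.0451), and between the clones -2.40. Ov4Carbo itself was split, with 4.09 in replicate 1 and 1.95 and 2.25 in replicates 2 and 3. Without any 1 of parental replicates 1 and 2 or of the Ov4Carbo4 replicates, the Ov4Carbo4 call was lost (adjusted p = 0.0514 to 0.0612).

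PLGRKT (ENSG00000107020), a plasminogen receptor of the cell surface, and TPM2 (ENSG00000198467), a muscle-type tropomyosin, completed the largest falls in Ov4Carbo4. PLGRKT had 2.22, 2.06 and 2.06 log2 RPKM there and 2.94, 2.74 and 2.73 in the parental line, a difference of -0.69 (SE 0.14, adjusted p = 0.00195). It was also lower than in each of Ov4Cis, Ov4Carbo and Ov4Carbo7, by -0.50, -0.59 and -0.67 (adjusted p = 0.0124, 0.00556 and 0.00161). TPM2 had 6.21, 5.96 and 6.18 in Ov4Carbo4 against 6.55, 6.86 and 6.75 in the parental line, a difference of -0.60 (SE 0.18, adjusted p = 0.0199). Its call was lost without parental replicate 2 or 3 or Ov4Carbo4 replicate 2 (adjusted p = 0.0717, 0.0522 and 0.0748).

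Of the members that were higher in Ov4Carbo4, DOCK8 (ENSG00000107099) had the largest difference. It encodes an exchange factor for CDC42 that is best known in leukocytes. It had 0.08, 0.31 and 0.71 log2 RPKM in the parental line, 2.42, 3.35 and 2.28 in Ov4Carbo4 and 2.95, 3.36 and 3.0002 in Ov4Carbo7. Ov4Carbo had 1.87, 1.12 and 1.14 and Ov4Cis 2.06, 0.66 and 0.82. Both clones were above the parental line, by 2.32 (SE 0.38, adjusted p = 0.000392) and 2.74 (SE 0.38, adjusted p = 9.43e-05), and above Ov4Carbo, by 1.31 (adjusted p = 0.0146) and 1.73 (adjusted p = 0.00359). DOCK8 was below the level limit in the parental line, and its high values in the clones helped it meet that limit. These differences are therefore a description. C9orf66 has an exon on the opposite strand of DOCK8.

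SLC1A1 (ENSG00000106688), which encodes a transporter of glutamate and cysteine, was highest in Ov4Carbo7. The parental line had -0.77, -0.08 and -0.51 log2 RPKM, Ov4Carbo4 1.30, 1.15 and 1.18, Ov4Carbo7 5.29, 5.02 and 5.002, and Ov4Cis 2.75, 2.18 and 2.20. These 3 resistant lines did not overlap the parental samples, while Ov4Carbo, at 2.64, 0.83 and -0.18, did. The differences were 5.56 in Ov4Carbo7 (SE 0.50, limma adjusted p = 3.68e-06), 2.83 in Ov4Cis (adjusted p = 0.000739), 1.66 in Ov4Carbo4 (adjusted p = 0.0196) and 1.55 in Ov4Carbo (adjusted p = 0.0317). With replicate 1 of Ov4Carbo left out, the Ov4Carbo difference was 0.78 (adjusted p = 0.0456). Leaving out replicate 1 of the parental line or of Ov4Carbo4 ended the Ov4Carbo4 call (adjusted p = 0.0647 and 0.0536). SLC1A1 was below the level limit in the parental line, and its high values, above all in Ov4Carbo7, helped it meet that limit. These differences are therefore a description. SLC1A1 and CLTA, a clathrin light chain, were the 2 members higher in all 4 resistant lines, CLTA by 0.28 in Ov4Carbo4 and 0.42 to 0.46 in the other 3. The share of all genes called higher in all 4 was not counted.

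JAK2 (ENSG00000096968), the kinase of cytokine receptors, had 0.77, 1.07 and 0.91 log2 RPKM in the parental line and 1.65, 1.69 and 1.61 in Ov4Carbo4, a difference of 0.73 (SE 0.15, adjusted p = 0.00189). It was higher by 0.87 in Ov4Carbo7 (adjusted p = 0.000521) and 0.91 in Ov4Cis (adjusted p = 0.000395), and Ov4Carbo, at 1.31, 0.60 and 1.01, overlapped the parental line. JAK2 was below the level limit in the parental line, and its higher values in the other lines helped it meet that limit. These rises are therefore a description.

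The sample titles form 2 number series: all samples of both clones and replicate 1 of Ov4Carbo are in one, and the parental line, Ov4Cis and replicates 2 and 3 of Ov4Carbo in the other. The labels do not say what the numbers stand for. A term for the series can be fitted through Ov4Carbo alone. With it, the Ov4Carbo4 difference of SLC1A1 from the parental line turned to -0.65 (adjusted p = 0.313), and DOCK8 (1.58, adjusted p = 0.0939), TTC39B (-0.53, adjusted p = 0.462), PLGRKT (-0.36, adjusted p = 0.273) and JAK2 (0.23, adjusted p = 0.45) lost their calls. MOB3B, NFIB, GLDC, DDX58, ERMP1 and TPM2 kept theirs. The members' Ov4Carbo4 median was 0.02 and that of the rest of chromosome 9 was 0.59 with the term. Within the series that holds both clones, the Ov4Carbo7 samples had medians of 0.05 to 0.09 over the rest of chromosome 9 and replicate 1 of Ov4Carbo 0.15, against 0.61 to 0.70 in Ov4Carbo4.

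**Figure D3:**
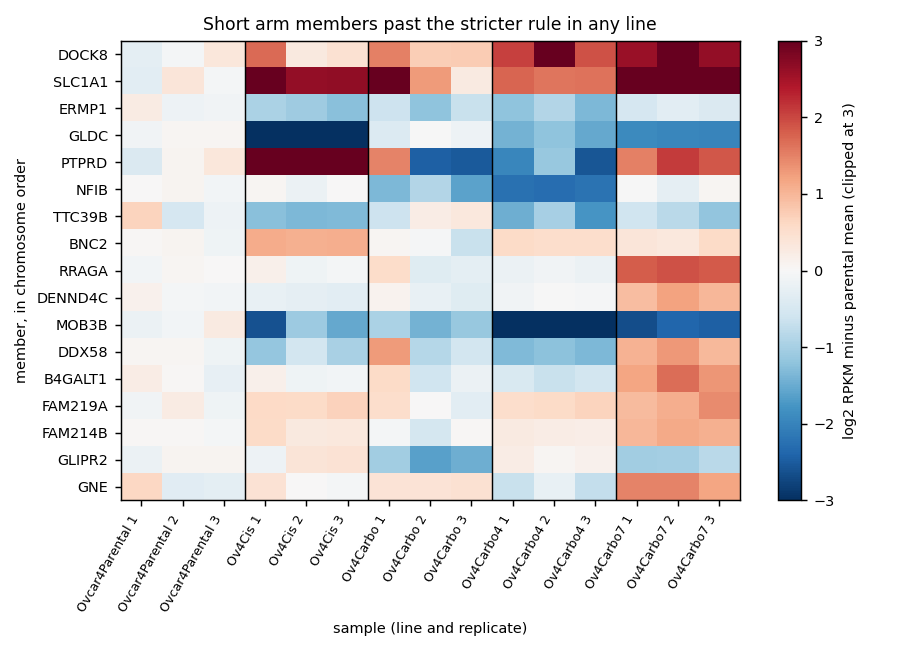
Log2 RPKM minus the parental mean (colour, clipped at 3) of the 17 short arm members that passed the stricter rule in at least 1 resistant line, in chromosome order (rows), in each of the 15 samples (columns, by line and replicate). MOB3B is lower in all 12 resistant samples, NFIB is lower in Ov4Carbo and Ov4Carbo4, and the row of RRAGA is high in the 3 Ov4Carbo7 samples.

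In Ov4Carbo7, 38 members (39.2%) were called against the parental line, 16 lower and 22 higher, against 42.6% of all genes and 43.1% of protein-coding genes of the same level. With the title series term 20 were called, 10 lower and 10 higher, against 25.2% of all genes. The stricter rule kept 11 (11.3%), 2 lower and 9 higher, against 17% and 10% of these genes. RRAGA (ENSG00000155876), the Rag GTPase that brings mTORC1 to the lysosome, had 7.30, 7.39 and 7.33 log2 RPKM in Ov4Carbo7 and 5.41, 5.56 and 5.51 in the parental line. The next 2 members on the chromosome, HAUS6 and DENND4C, were named after their values were seen. HAUS6 (ENSG00000147874), a subunit of the augmin complex of the spindle, had 4.57, 4.61 and 4.44 against 3.76, 3.42 and 3.46. DENND4C (ENSG00000137145), an exchange factor for the vesicle GTPase RAB10, had 3.72, 4.01 and 3.78 against 2.93, 2.74 and 2.71. All 3 were above every other sample of the study in each Ov4Carbo7 replicate. The differences from the parental line were 1.85 for RRAGA (SE 0.19, limma adjusted p = 9.59e-06), 0.99 for HAUS6 (SE 0.10, adjusted p = 1.15e-05) and 1.05 for DENND4C (SE 0.12, adjusted p = 3.14e-05).

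The nearest member on either side of this run did not pass. CNTLN, a centriole protein gene that precedes RRAGA, differed by 0.02 (adjusted p = 0.919), and RPS6, a protein of the small ribosomal subunit that follows DENND4C, by -0.23 (adjusted p = 0.226). BNC2, the member before CNTLN, was higher by 0.42 (adjusted p = 0.0476). PLIN2, a lipid droplet gene that lies between HAUS6 and DENND4C and is no member, was higher in Ov4Carbo7 by 3.64 (adjusted p = 0.0362) and lower in Ov4Carbo4, at -7.03. The processed pseudogene AL161909.1, between PLIN2 and DENND4C, did not pass in Ov4Carbo7 (-0.22, adjusted p = 0.31). Against Ov4Carbo, the Ov4Carbo7 differences were 1.88 for RRAGA, 0.87 for HAUS6 and 1.21 for DENND4C (adjusted p = 2.55e-05, 7.51e-05 and 3.03e-05). Replicate 1 of Ov4Carbo had 6.05 for RRAGA against 5.14 and 5.19 in the other 2, and without it the RRAGA difference was 2.18. In Ov4Carbo4, RRAGA and DENND4C did not pass against the parental line, at -0.16 and -0.05, and HAUS6 was lower, by -0.36 (adjusted p = 0.0164). DENND4C and RPS6 each share exon sequence with a gene on the opposite strand.

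**Figure D4:**
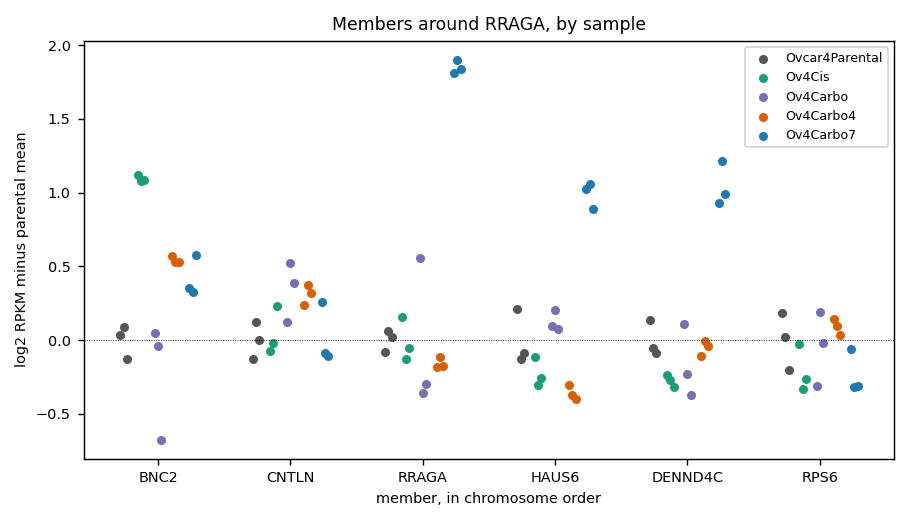
Log2 RPKM minus the parental mean (vertical axis) of 6 neighbouring short arm members in chromosome order (horizontal axis); points are samples, coloured by line. The Ov4Carbo7 samples lie apart from the other 4 lines for RRAGA (1.85 above the parental mean), HAUS6 (0.99) and DENND4C (1.05), and not for CNTLN (0.02) or RPS6 (-0.23).

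In Ov4Carbo, 23 members (23.7%) were called against the parental line, 13 lower and 10 higher, against 34% of all genes and 33.5% of protein-coding genes of the same level. The stricter rule kept 4 (4.12%), against 12.7% and 6.36%. Only 4 were called when these 2 lines were fitted alone, 15 without parental replicate 2 and 14 without parental replicate 3. The calls over all genes fell as well in these fits, to 14.1%, 24.4% and 26.0%. GLIPR2 (ENSG00000122694), a protein of the Golgi surface, had 2.27, 2.52 and 2.52 log2 RPKM in the parental line and 1.38, 0.81 and 0.97 in Ov4Carbo, a difference of -1.38 (SE 0.17, adjusted p = 8.93e-05). Ov4Carbo7, at 1.39, 1.40 and 1.64, was also below the parental line, by -0.96 (adjusted p = 0.000764), while Ov4Carbo4, at 2.66, 2.48 and 2.57, overlapped it. The clones differed by 1.09 (SE 0.17, adjusted p = 0.00021), Ov4Carbo4 being higher. ZCCHC7, a cofactor of the nuclear exosome, was higher in Ov4Carbo by 0.65 (adjusted p = 0.00856), and GALT, an enzyme of galactose use, by 0.57 (adjusted p = 0.00757). Neither passed with these 2 lines alone (adjusted p = 0.0899 and 0.0637), and exons of GALT overlap those of IL11RA on the same strand.

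Replicate 1 of Ov4Carbo stood apart from the other 2 by at least 1 for 3 members, PTPRD, SLC1A1 and DDX58. Without it, 31 members were called in Ov4Carbo. SMARCA2, an ATPase of the SWI/SNF chromatin complex, was lower in Ov4Carbo by -0.97 (adjusted p = 0.00228) and by -1.27 without that replicate (adjusted p = 6.6e-06).

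In Ov4Cis, 28 members (28.9%) were called against the parental line, 14 lower and 14 higher, against 36.2% of all genes and 35.7% of protein-coding genes of the same level. The stricter rule kept 7 (7.22%), against 15.9% and 9.03%. PTPRD (ENSG00000153707), a receptor tyrosine phosphatase, had 6.40, 6.25 and 6.46 log2 RPKM in Ov4Cis and -0.35, 0.18 and 0.42 in the parental line. The difference was 6.29 and is given as a description, since PTPRD met the level limit through its high values in Ov4Cis and Ov4Carbo7. Ov4Carbo7 had 1.59, 2.19 and 1.95, Ov4Carbo4 -1.87, -1.06 and -2.48, and Ov4Carbo 1.57, -2.36 and -2.44. The Ov4Cis samples stood above every other sample. BNC2, a zinc finger factor named after its values were seen, was higher in Ov4Cis by 1.09 (adjusted p = 0.000144).

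Ov4Carbo4 and its source Ov4Carbo differed in 40 members (41.2%), 17 lower and 23 higher in Ov4Carbo4, against 42.2% of all genes and 44.5% of protein-coding genes of the same level. With these 2 lines alone 19 were called, against 27.0% of all genes, and with the title series term 20, against 27.6%. Without Ov4Carbo4 replicate 2 or 3, 22 and 26 were called, against 34.3% and 32.6% of all genes. The 2 clones differed in 45 members (46.4%), 26 lower and 19 higher in Ov4Carbo4, against 51.1% of all genes and 53.6% of protein-coding genes of the same level. Besides HAUS6 and DDX58, RUSC2 (ENSG00000198853), whose protein binds Rab GTPases, was called in opposite directions in the clones. It had 2.39, 2.49 and 2.30 log2 RPKM in Ov4Carbo4, 3.69, 3.64 and 3.72 in Ov4Carbo7 and 2.86, 2.77 and 2.47 in the parental line. Ov4Carbo7 was apart from all parental samples, and Ov4Carbo4 overlapped them. The differences from the parental line were -0.31 (adjusted p = 0.0311) and 0.98 (adjusted p = 1.22e-05), and between the clones -1.30. FAM166B has an exon on the opposite strand of RUSC2.

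Members that set Ov4Carbo4 apart from every other line were few. PLGRKT, NFIB, MOB3B and RUSC2 (4.12% of members) were lower there than in each of the other 4 lines, against 0.635% of the rest of chromosome 9 and 6.61% of all genes. Higher there than in each of the other 4 lines were 4.12% of members, among them KLHL9 and DCAF12, adaptors of cullin ubiquitin ligases, and the zinc finger gene ZBTB5, against 46.3% of the rest of chromosome 9 and 6.08% of all genes. KLHL9 had 4.36, 4.62 and 4.54 log2 RPKM in Ov4Carbo4 against 3.91, 3.91 and 4.07 in the parental line, a difference of 0.54 (adjusted p = 0.000937). It was lower in Ov4Cis, by -0.38 (adjusted p = 0.00896). KLHL9, DCAF12 and ZBTB5 were named after their values were seen.

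The members were also grouped by role. Over all genes, 18% were called lower and 21.6% higher in Ov4Carbo4 against the parental line (median 0.07), 20.4% and 22.2% in Ov4Carbo7 (median 0.02), 16.2% and 17.7% in Ov4Carbo (median 0.03) and 16.4% and 19.8% in Ov4Cis (median 0.04). The lists hold 3 to 14 members each, and none was tested as a set. They were written with earlier results known, and UHRF2 and NFX1 are in 2 of them. BAG1, UBE2R2, POLR1E, UHRF2, UNC13B, SLC25A51 and, above, SMARCA2 and CNTLN were named after their values were seen. Of 14 members of ubiquitin and protein folding, 2 were lower and 4 higher in Ov4Carbo4 (median 0.21) and 2 lower and 1 higher in Ov4Carbo7 (median -0.07). UBE2R2, DCAF12 and KLHL9, which act in ubiquitin ligation, were among those higher in Ov4Carbo4. The 2 most abundant, the segregase VCP and the mitochondrial STOML2, had differences of 0.31 (adjusted p = 0.0784) and 0.06 (adjusted p = 0.681) there. BAG1, a partner of HSP70 chaperones, was lower in Ov4Carbo4, Ov4Carbo and Ov4Cis, by -0.50, -0.55 and -0.79 (adjusted p = 0.0178, 0.0131 and 0.00114). In Ov4Carbo 2 of the list were lower and 0 higher, and in Ov4Cis 4 and 0.

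Of the 10 members of RNA processing and translation, 0 were called in Ov4Carbo4 (median 0.12), 1 lower and 2 higher in Ov4Carbo7 (median 0.02), 0 and 2 in Ov4Carbo and 0 and 1 in Ov4Cis. RPS6, the member of highest level, had 7.9996, 7.95 and 7.89 log2 RPKM in Ov4Carbo4 and 8.04, 7.87 and 7.65 in the parental line, a difference of 0.09 (adjusted p = 0.657). NOL6, which acts in ribosome assembly, had a difference of -0.26 (adjusted p = 0.401). POLR1E, a subunit of RNA polymerase I, was lower in Ov4Carbo7 by -0.84 (adjusted p = 0.00297).

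Transcription factors and chromatin had 11 members, of which 1 was lower (NFIB) and 2 higher (ZBTB5, BNC2) in Ov4Carbo4 (median 0.20). In Ov4Carbo7, 4 were lower and 1 higher (median -0.07), in Ov4Carbo 4 and 1, and in Ov4Cis 2 and 1. GLIS3, a zinc finger factor, had 5.99, 6.10 and 6.02 log2 RPKM in Ov4Carbo4, 5.11, 5.37 and 5.37 in Ov4Carbo7 and 5.28, 5.13 and 5.20 in Ov4Carbo. Ov4Carbo4 was thus above its source by 0.83 (SE 0.12, adjusted p = 0.000162) and not above the parental line (0.20, adjusted p = 0.188). CREB3, a factor held at the endoplasmic reticulum, did not pass in any of the 4 lines, with differences of -0.15 to 0.05. UHRF2, which reads modified histones and DNA, was lower in Ov4Carbo7, Ov4Carbo and Ov4Cis, by -0.32, -0.36 and -0.50 (adjusted p = 0.0453, 0.0327 and 0.00525).

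Cytoskeleton, centrosome and cilia had 11 members, with 2 lower and 1 higher in Ov4Carbo4 (median 0.14), 0 and 2 in Ov4Carbo7 (median 0.02), 2 and 2 in Ov4Carbo and 0 and 1 in Ov4Cis. TLN1, the integrin linker talin, passed in Ov4Carbo alone of the 4 (-0.46, adjusted p = 0.0484). UNC13B, a vesicle priming protein, was higher in Ov4Carbo4 by 0.65 (adjusted p = 0.00146).

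Of 12 metabolic enzymes, 1 was lower and 0 higher in Ov4Carbo4 (median -0.17), and 1 lower and 5 higher in Ov4Carbo7 (median 0.29). Between the clones, 6 were lower and 1 higher in Ov4Carbo4, against 24% and 27.1% of all genes. B4GALT1, a galactosyltransferase of glycoproteins, had 4.54, 4.32 and 4.44 log2 RPKM in Ov4Carbo4, 6.17, 6.68 and 6.32 in Ov4Carbo7 and 5.20, 5.03 and 4.74 in the parental line. The clones lay on either side of the parental samples, with a difference of -1.96 between them (SE 0.24, limma adjusted p = 3.28e-05). GNE, which starts sialic acid synthesis and was named after its values were seen, had 3.45, 3.89 and 3.40 in Ov4Carbo4 and 5.62, 5.62 and 5.31 in Ov4Carbo7, a difference of -1.94. AK3, a mitochondrial nucleotide kinase, was lower in Ov4Carbo4 than in Ov4Carbo7 by -0.69 (adjusted p = 0.00053). In Ov4Carbo, 0 were lower and 1 higher, and in Ov4Cis 2 and 1. B4GALT1 has an antisense gene whose exons overlap its own.

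Membrane traffic and lysosome had 9 members, with 0 lower and 2 higher in Ov4Carbo4 (median 0.02), 1 and 4 in Ov4Carbo7 (median 0.32), 0 and 1 in Ov4Carbo and 1 and 2 in Ov4Cis. CLTA, with RRAGA the most abundant of them, had 5.12, 5.15 and 5.17 log2 RPKM in the parental line and 5.46, 5.37 and 5.44 in Ov4Carbo4, a difference of 0.28 (SE 0.09, adjusted p = 0.0271). SLC25A51, listed here although it is a mitochondrial carrier, was the other one higher in Ov4Carbo4 (0.41, adjusted p = 0.0121). C9orf72, a regulator of membrane traffic, was lower in Ov4Carbo7 by -0.47 (adjusted p = 0.014) and in Ov4Cis by -0.74 (adjusted p = 0.000949). It was below the level limit in both of these lines, so these falls are a description. Immune signalling had 3 members, JAK2, DOCK8 and DDX58: 1 was lower and 2 were higher in Ov4Carbo4, 0 and 3 in Ov4Carbo7, 0 and 0 in Ov4Carbo, and 0 and 1 in Ov4Cis. JAK2 and DOCK8 were below the level limit in the parental line. The 29 members in no list had 5 lower and 3 higher in Ov4Carbo4 (median -0.06) and 8 and 4 in Ov4Carbo7 (median -0.12).

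**Figure D5:**
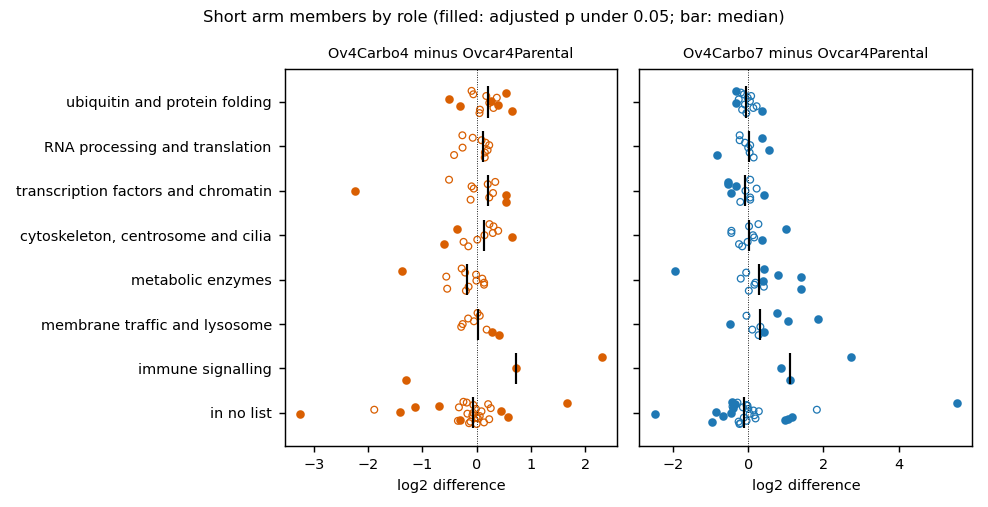
Log2 difference from the parental line (horizontal axis) of each short arm member by role (rows) in Ov4Carbo4 (left) and Ov4Carbo7 (right); filled points passed at an adjusted p under 0.05 and bars are medians over a list. The bar of the metabolic enzymes lies at -0.17 in Ov4Carbo4 and 0.29 in Ov4Carbo7, and every list has members on both sides of 0 in both panels except the 3 immune signalling members in Ov4Carbo7.

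The range of the 5 line means had a median of 0.58 over the members, 0.88 over the rest of chromosome 9 and 0.73 over the other chromosomes, and the median SD within a line was 0.12 for the members. For 21 members (21.6%) the range was at least 1, against 38.1% of the rest of chromosome 9 and 29.4% of genes on other chromosomes. Of the 97 members, 37 were called in 0 of the 4 resistant lines against the parental line, among them VCP, RPS6, STOML2, NOL6 and CREB3. The share of all genes called in 0 lines was not counted, so this number is a description and says nothing particular to the arm. An exon of 33 members overlaps an exon of a gene on the opposite strand and an exon of 13 members one on the same strand, so their reads are uncertain. CBWD1 also has near-identical copies.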

How the data were processed

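RNA-seq of 15 samples (5 lines, 3 replicates each) was analysed from 1 deposited table of 16604 genes, whose values the authors give as log2 RPKM normalised by cqn, per its name. BWA 0.7.15-r1140, HTSeq and hg19 (GRCh37) are named per the submitters' processing notes, and the strand setting and the filter on low genes are not given in the sources used here. No read counts were used, so the depth is unknown and no counting error can be given. Samples were grouped by their labels, and the replicates are said to be biological.

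Positions and gene types came from GENCODE v29 (GRCh38), matched for 16499 rows. Differences were fitted with limma 3.58.1 (R 4.3.3) on all genes and samples with 1 coefficient per line, without a further pseudocount, and adjusted by Benjamini-Hochberg within each comparison. A call is an adjusted p under 0.05. The procedure was tested on simulated data. Summaries and figures used Python 3.11.15, pandas 2.3.3, numpy 2.4.6 and matplotlib 3.10.9.

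The members and lists were chosen with earlier results of these data known. The genes named were the 8 largest falls and 4 largest rises in Ov4Carbo4 and the 2 of each in the other lines (called, groups not overlapping), those lower in Ov4Carbo4 than in each other line, the 2 of highest level in each role list and those next to the limits; others are said to be named after their values were seen. A result that this rule would name is not reported here. Alternatives were a fit with the title series as a covariate, a fit blocked on replicate number, a fit of the 2 lines alone, log2(RPKM + 1), the level limit applied to all genes, median-centred samples, quantile normalisation, a variance trend and each sample left out in turn.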

Additional observations from a re-analysis of the deposited data

Results flagged for a closer look

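For 3 short arm members the 2 clones were called in opposite directions against the parental line. The share of all genes with such calls was not counted. Ov4Carbo4 minus Ov4Carbo7 was -1.35 for HAUS6, -2.40 for DDX58 and -1.30 for RUSC2, on the log2 scale. The genes were picked for these opposite calls, which fixes the direction of the difference between the clones, so the values are a description with no test. Every group had 3 samples, so no group was tested for a sample far from the others.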

How the results depend on the processing

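The 12 results on the members as a set and 34 single-gene results were recomputed under 23 settings each. With the title series term, 20 members were called in Ov4Carbo7 and 20 between Ov4Carbo4 and Ov4Carbo (38 and 40 without it), with medians of 0.046 and 0.0232, and SLC1A1 turned to -0.65 in Ov4Carbo4 (adjusted p = 0.313). With only the 2 lines compared, 4 members were called in Ov4Carbo and 19 between Ov4Carbo4 and Ov4Carbo, against 14.1% and 27.0% of all genes. Fewer samples entered that fit. The cause of the other changes was not tested. Leaving out 1 sample at a time, the median ranged from -0.0149 to 0.0192 in Ov4Carbo4, 0.0002 to 0.0367 in Ov4Carbo7, -0.0943 to 0.0009 in Ov4Carbo and -0.0318 to 0.0296 in Ov4Cis, from 0.0141 to 0.0541 for Ov4Carbo4 against Ov4Carbo and from -0.0453 to 0.0095 against Ov4Carbo7. The counts ranged over 18 to 32, 26 to 42, 14 to 31, 21 to 30, 22 to 46 and 38 to 48 in the same order. Of 782 single-gene values under alternatives, 764 kept direction and side of the threshold, 17 lost the call and 1 reversed. Replicate numbers did not pair the samples (r over 0.1 in 11 of 30 same-numbered pairs, median -0.02). With the replicate block, 25, 32, 21, 27, 34 and 43 members were called in that order, and no named gene's call changed. Depth is unknown, so what it limits cannot be given.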
